A study of Sander lucioperca with 12 samples.

Results

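Glutamate, GABA and glycine receptor genes were followed in whole-brain RNA of juvenile pikeperch (Sander lucioperca). Members were chosen by gene symbol: gria, grik, grin, grid or grm followed by a digit, and every symbol beginning with gabr, gabbr, glra or glrb. These were 55 of the 32963 named genes of the count table. Of them, 53 encode receptor subunits: 4 AMPA (gria), 4 kainate (grik), 10 NMDA (grin), 3 delta (grid), 10 metabotropic glutamate (grm), 13 GABA-A (gabra, gabrb, gabrg, gabrd), 2 GABA-A rho (gabrr), 3 GABA-B (gabbr) and 4 glycine (glra, glrb). The other 2, grid2ipa and grid2ipb, carry a matching symbol but encode proteins that bind the delta receptor. Receptor genes that carry only a locus identifier were not analysed here, so that the level of a class is the level of its named members.

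The samples came from wild fish in their first summer, in 4 groups of 3 fish with 1 library each: piscivores of 2023, planktivores of 2023, piscivores of 2022 and planktivores of 2022. Piscivores were seined in the littoral zone and planktivores trawled in the pelagic zone, and piscivores were the larger fish, so phenotype, habitat, gear and body size cannot be told apart. No group carried a manipulated gene or received a treatment, and the sex of such young fish could not be distinguished. Each year has its own batch date in the sample records, and in both phenotypes the fish of 2022 were longer than those of 2023, so year, batch and body size cannot be told apart either.

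Glutamate is the main excitatory transmitter of the vertebrate brain and acts on cation channels of the AMPA, kainate and NMDA classes and, more slowly, on metabotropic receptors that signal through G proteins. GABA and glycine are the inhibitory transmitters: both open chloride channels (GABA-A and glycine receptors), and GABA also acts on the G protein-coupled GABA-B receptor. The channels are assembled from several subunits, and which subunits a neuron uses sets the speed, ion selectivity and place of its receptors. Bony fishes kept many of these genes as a and b copies after a genome duplication of their ancestor.

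Libraries held between 15327406 and 33858794 counts on named genes, of which the members took 0.304% to 0.505%. Levels below are CPM after TMM normalization per kilobase of exon (CPM per kb), which allows genes to be compared with each other. Every member was counted in every library, with 11 counts as the lowest value (gabrr3a and grm6b). The 15 of 20 listed neuron markers found in the table summed to between 3053 and 4801 CPM per kb, and 0 of these 15 were at 0 throughout. Regional content varied between fish, both within and between groups. The forebrain transcription factor gene foxg1a, for instance, stood between 5.66 and 14.1 CPM per kb in 6 libraries and at or below 0.781 CPM per kb in the other 6. In 2023 this split followed phenotype, with every piscivore on the higher side, whereas both groups of 2022 were mixed. Summed markers of the cerebellum (14 of 16 listed in the table) ran between 223.7 and 1454 CPM per kb, with the lowest value in replicate 3 of the piscivores of 2022. The share of ribosomal RNA genes differed by year, with 0.137% to 0.36% in the libraries of 2023, against 12.0% to 21.0% in those of 2022. These values are set beside the results they touch. In RNA of a whole brain, fewer cells of a type and less RNA per cell cannot be told apart.

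Levels differed widely between members. On the high side were gria2b with a mean of 62.2 CPM per kb over the 12 libraries, grin1a with 61.1 and gabrb2a with 58.8, and these 3 overlapped in their ranges over libraries. gria2b encodes the AMPA subunit that keeps calcium out of the channel, grin1a the subunit that every NMDA receptor needs, and gabrb2a a beta subunit of the GABA-A channel. At the other end were grm6b with 0.282, grm6a with 0.458 and gabrr3a with 0.647 CPM per kb, genes whose mammalian counterparts belong mainly to the retina. Markers of retina and pineal, 12 of 16 listed in the table, summed to 1.18 to 27.7 CPM per kb. The median spread of a member within its group, as an SD of log2 CPM, was 0.302, against 0.242 over the 19149 genes above 1 CPM. It was largest for grin2ca (1.08).

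**Figure D1:**
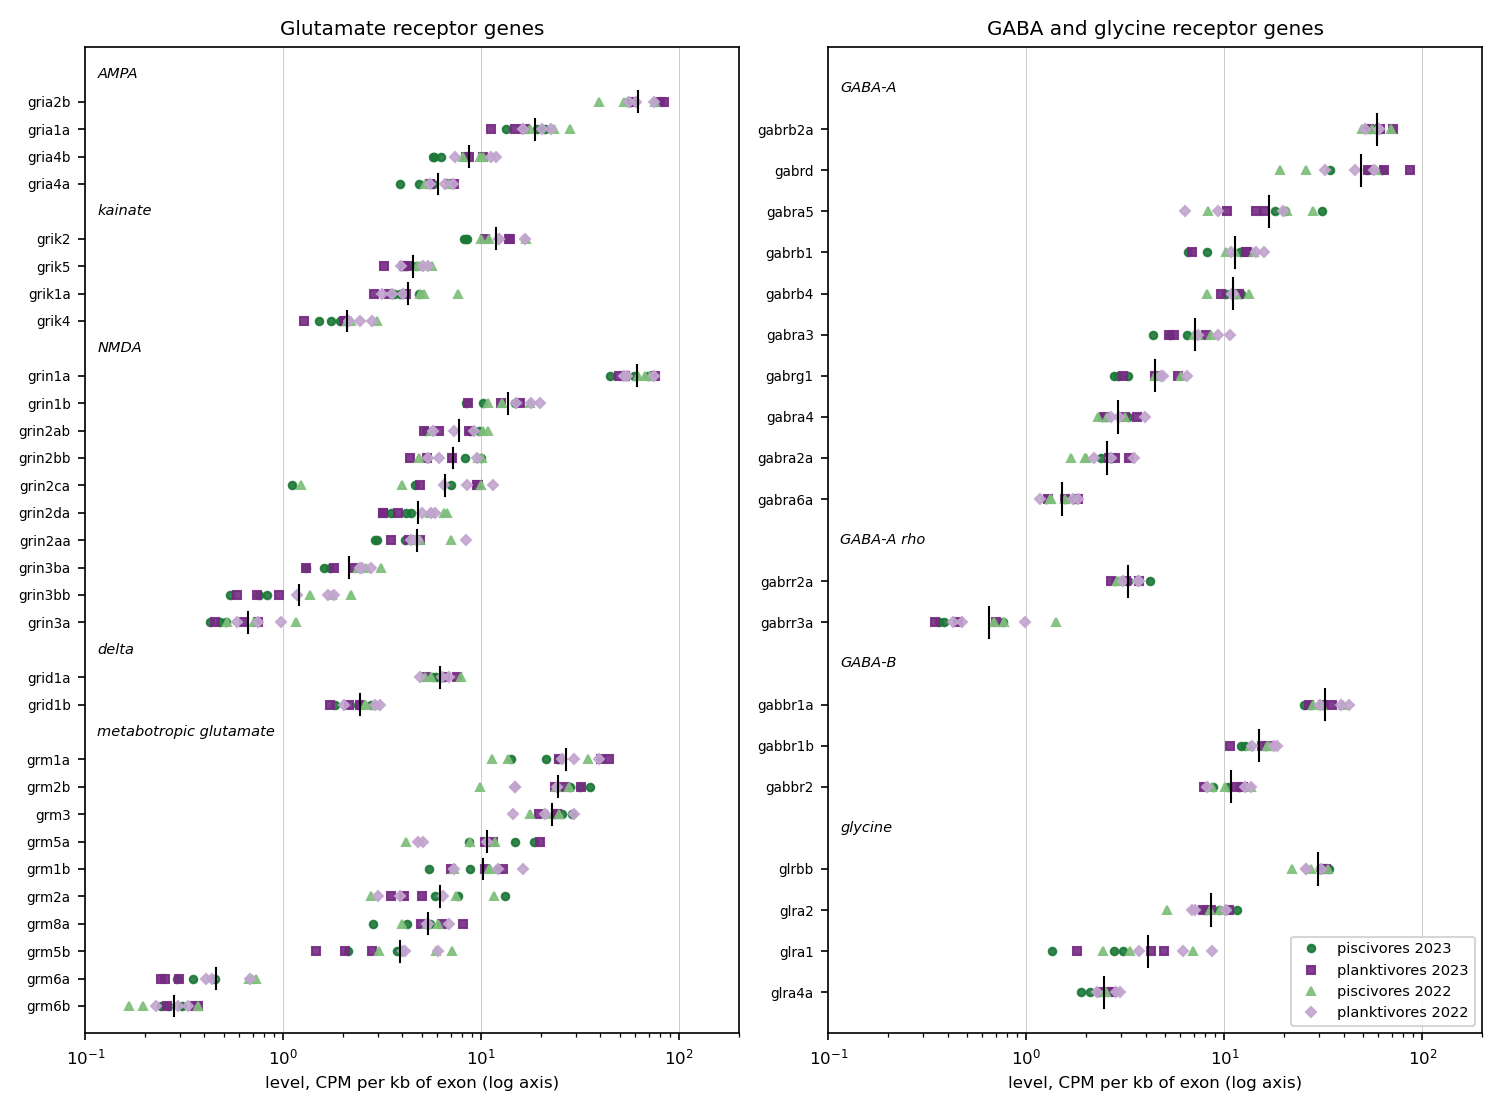
Level of receptor genes in each of the 12 libraries in CPM per kb of exon on a log axis, grouped by receptor class and ordered within a class by its mean (black line). Symbols and colours mark the 4 groups of 3 fish. grin2ca spreads widest, between 1.11 and 11.5 CPM per kb, and grm6b is lowest with a mean of 0.282 CPM per kb.

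Among classes, the 13 GABA-A genes had the highest summed level, with a mean of 312 CPM per kb and a range over libraries of 246.9 to 359.4. Metabotropic glutamate receptors followed with a mean of 111 CPM per kb, NMDA with 109.7 and AMPA with 95.6, and these 3 overlapped. GABA-B summed to 58.2, glycine to 44.8, kainate to 22.7, delta to 19.4 and GABA-A rho to 3.90 CPM per kb. The sum over all 53 receptor genes lay between 631.6 CPM per kb in replicate 2 of the piscivores of 2022 and 904.8 in replicate 6 of the planktivores of 2023. Metabotropic receptors varied most between libraries, 2.14 times between the lowest and the highest sum, and glycine receptors least, 1.34 times.

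Within the GABA-A class, gabrb2a made up 17.8% to 20.2% of the sum. gabrd, the delta subunit of receptors outside the synapse, which in mammals is typical of cerebellar granule cells, took a far more variable share of 6.57% to 24.0%. Among the alpha subunits, gabra5, known in mammals for extrasynaptic receptors of the hippocampus, took 4.78% to 21.0%, and gabra6a, a granule cell subunit in mammals, 0.838% to 1.39%. Further members of the class averaged 11.3 (gabrb1), 11.1 (gabrb4), 7.12 (gabra3), 4.46 (gabrg1), 2.92 (gabra4) and 2.54 CPM per kb (gabra2a). The rho genes, known from the retina, were led by gabrr2a with a mean of 3.25 CPM per kb. In the GABA-B class, which works as a pair of a ligand-binding and a signalling subunit, gabbr1a was highest with 32.3 CPM per kb, gabbr1b stood at 15.03 and gabbr2 at 10.8.

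Glycine receptors were led by the beta subunit gene glrbb, which ties the receptor to its anchor gephyrin, with 58.2% to 70.2% of the class. The alpha subunit gene glra2, the early form in mammals, took 14.1% to 23.9% and glra4a 4.31% to 6.81%. glra1, the adult form of the mammalian hindbrain and spinal cord, ranged from 2.78% to 19.6%, the widest range of the class.

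Among ionotropic glutamate receptors, gria2b took 53.1% to 72.3% of the AMPA sum and gria1a 12.9% to 29.3%. gria4b and gria4a were the lowest of the 4 AMPA genes, with means of 8.64 and 6.03 CPM per kb. In the NMDA class grin1a took 45.7% to 64.3%. The ratio of the GluN1 to the GluN2 subunit genes lay between 1.83 and 2.85. Among the GluN2 genes, which set the kinetics of the receptor, grin2ab had a mean share of 24.9%, grin2bb of 23.2%, grin2ca of 20.8%, grin2da of 15.7% and grin2aa of 15.4%. The share of grin2ca, the granule cell subunit in mammals, ran from 3.72% to 32.6%. The GluN3 genes grin3ba, grin3bb and grin3a, whose subunits lower calcium flow and bind glycine, were at 2.15, 1.199 and 0.663 CPM per kb. Kainate receptors were led by grik2 with a mean of 11.8 CPM per kb, ahead of grik5 with 4.51, grik1a with 4.26 and grik4 with 2.102. In the delta class, grid1a averaged 6.17 and grid1b 2.46 CPM per kb. The genes for the proteins that bind delta receptors averaged 6.32 (grid2ipa) and 4.14 CPM per kb (grid2ipb).

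Metabotropic glutamate receptors fall into 3 groups by signalling. Group I, which acts through phospholipase C, comprised grm1a with 26.9, grm5a with 10.7, grm1b with 10.2 and grm5b with 3.87 CPM per kb. Group II, which lowers cyclic AMP, comprised grm2b with 24.4, grm3 with 22.9 and grm2a with 6.19 CPM per kb. The named members of group III, which is mostly presynaptic, were low: grm8a stood at 5.40 CPM per kb, and grm6a and grm6b were the lowest members of all. No grm4 or grm7 gene of this group was among the named members, so the level of the whole group is not known here.

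**Figure D2:**
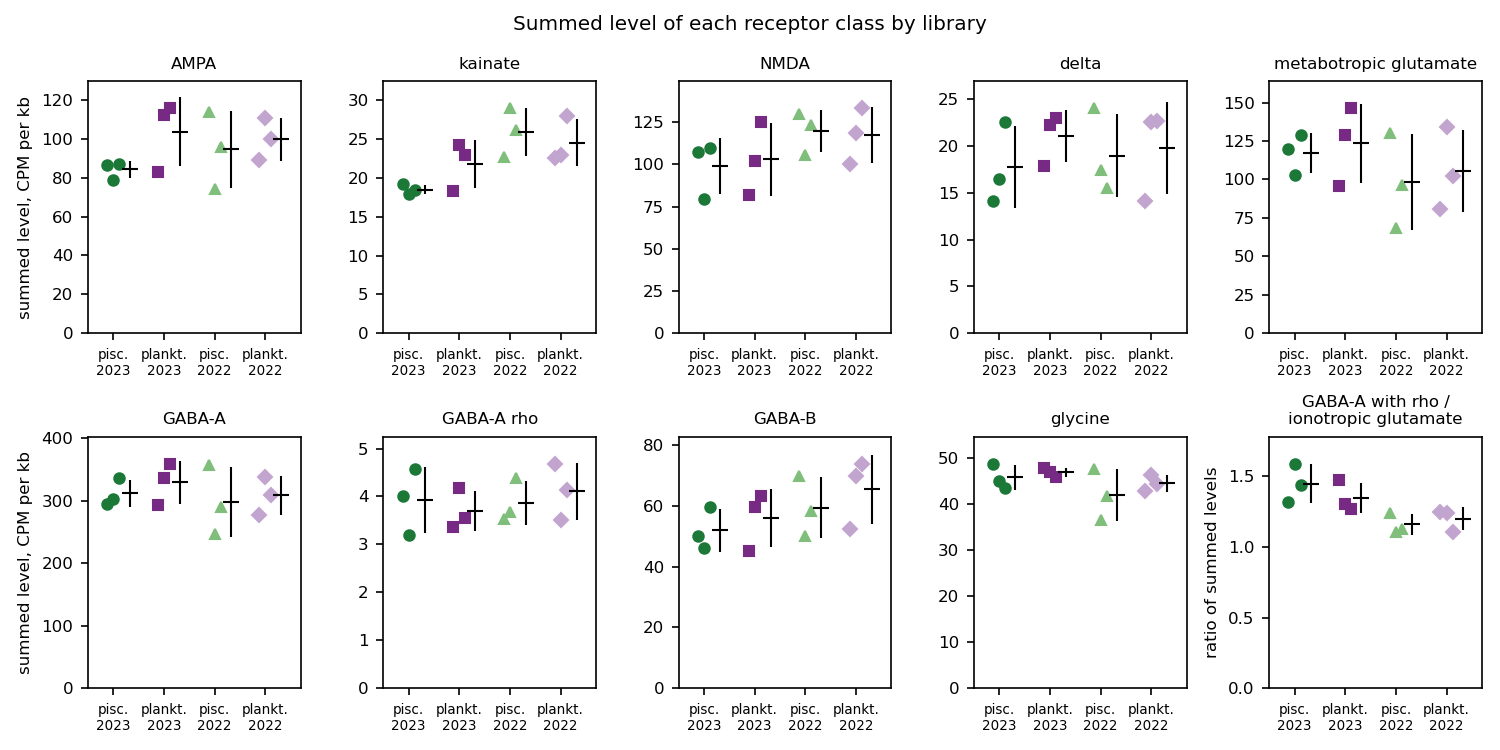
Summed level of each receptor class in CPM per kb for each library, by group, with the mean and SD of 3 libraries beside the points. The last panel gives the ratio of GABA-A genes, with rho, to ionotropic glutamate receptor genes. Axes start at 0, and the ratio is above 1 in every library.

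Of 10 pairs of a and b copies, the most unequal was grin1a over grin1b, with a mean log2 ratio of 2.19 and grin1a higher in 12 of 12 libraries. grm2a stood at 0.254 of the level of grm2b and was lower in every library. grm5a exceeded grm5b in 12 of 12 libraries, but its log2 ratio ran from 0.219 to 3.27, the most variable of the pairs, and it differed by year as given below. The most even pairs were gria4a and gria4b (mean log2 ratio -0.50), grm6a and grm6b (0.633) and grin2aa and grin2ab (-0.721).

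Several members neighbour each other in the genome (SLUC_FBN_1.2 assembly). gabrb2a and gabra6a lie 239 bases apart on chromosome 1, gabra3 and gabrb4 share chr13:8349469-8577184, and gabrg1, gabra2a and gabrb1 lie within chr18:29738603-29878445. gabra5, which recurs below, lies on the minus strand at chr11:10327023-10353930. Exons of 5 members overlap another annotated gene. Among them are grin1a (278 bases), grin2ca (215) and grm2a (3), each with a gene on the opposite strand. The sources used here do not give the strand setting of the counting, so reads in these stretches could come from either gene.

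The comparison of piscivores with planktivores of 2023 asked whether receptor transcripts differ between the 2 feeding phenotypes. With edgeR's quasi-likelihood test, 0 of 55 members were differentially transcribed (DT: Benjamini-Hochberg adjusted p below 0.05 and more than 2-fold), where 0.168% of all 21386 genes tested were. At an unadjusted p below 0.05, 3 members were higher in piscivores (8.90% of all genes) and 5 were lower (4.78% of all genes). Fold changes had a median of -0.061 over the members on the log2 scale and of -0.001 over all genes, with 22 members higher and 33 lower. DESeq2's Wald test called 1 of 55 members, grm2a, with an adjusted p of 0.0134, where it called 1.40% of the 29297 genes it tested.

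On the higher side were grm2a and gabra5, among others. Values in what follows stand in the order of replicates 1, 2 and 4 for piscivores and 4, 5 and 6 for planktivores of 2023. gabra5 had 31.3, 17.9 and 20.2 CPM per kb in piscivores, against 10.4, 14.5 and 16.0 CPM per kb in planktivores, and the groups did not overlap. The log2 fold change was 0.79 ± 0.25 (SE), with an adjusted p of 0.243 by edgeR.

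grm2a, a group II receptor that dampens transmitter release, had 13.1, 5.85 and 7.61 CPM per kb in piscivores, against 3.51, 4.05 and 5.02 CPM per kb in planktivores. The groups did not overlap, and the log2 fold change was 1.1 ± 0.30 with an adjusted p of 0.200 by edgeR. For both genes replicate 1 of the piscivores was the highest of the 6 libraries. Without it the log2 fold changes were 0.70 for grm2a and 0.50 for gabra5. The telencephalon genes, of which 13 of 16 listed are in the table, summed to 120, 70.7 and 73.8 CPM per kb in piscivores, against 50.6, 49.7 and 48.6 CPM per kb in planktivores. foxg1a was at 14.1, 5.66 and 6.28 CPM per kb in piscivores and at 0.323, 0.781 and 0.0736 CPM per kb in planktivores. Over the whole list of 13, 12 genes had a positive fold change and 1, tbr1b, passed the edgeR test (6 by DESeq2). The sums of other lists were also higher in every piscivore of 2023. Microglia (7 of 8 genes in the table) had 941 to 1225, against 445.3 to 878.5 CPM per kb in planktivores. Meninges (11 of 12) had 128.8 to 225.8, against 54.1 to 98.5. Hypothalamus (10 of 14) had 220.3 to 260.9, against 49.1 to 198.9, but its genes mostly went the other way. Of its 9 genes tested, 2 had a positive and 7 a negative fold change, with a median log2 of -0.51. At an unadjusted p below 0.05, 1 was higher (8.90% of all genes) and 5 lower (4.78%). The neuron markers were lower in every piscivore, with 3109 to 3852, against 3977 to 4378 CPM per kb. The part of these markers in the receptor values was not tested.

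On the lower side were gria4b, grik2, grm1a, gria4a and gabrg1. gria4b, an AMPA subunit of fast synapses, had the smallest adjusted p of all members. It stood at 6.27, 5.77 and 5.68 CPM per kb in piscivores, against 8.68, 8.35 and 10.3 CPM per kb in planktivores, a log2 fold change of -0.60 ± 0.13 (adjusted p = 0.126 by edgeR and 0.00447 by DESeq2). The 3 piscivores lay within a narrow band well under the planktivores, and the log2 fold change stayed between -0.66 and -0.50 when any 1 library was left out.

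The kainate receptor gene grik2 was likewise at 8.40, 8.51 and 8.20 CPM per kb in piscivores, against 10.4, 13.8 and 13.9 CPM per kb in planktivores (-0.58 ± 0.14, adjusted p = 0.164 by edgeR). gria2b, the leading AMPA gene, did not overlap either, with 55.5, 54.97 and 56.5 CPM per kb in piscivores, against 57.7, 79.7 and 83.6 CPM per kb in planktivores (-0.38 ± 0.17, adjusted p = 0.369 by edgeR). Of the 4 AMPA genes 3 were lower in piscivores, with a class median of -0.41. The sum of the AMPA genes was 0.813 of that in planktivores, but the groups overlapped, at 86.8, 79.0 and 87.0 CPM per kb in piscivores and 83.2, 112 and 115.6 CPM per kb in planktivores.

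grm1a, a group I receptor that in mice serves Purkinje cells of the cerebellum, had 14.2, 21.2 and 24.4 CPM per kb in piscivores, against 24.6, 40.3 and 44.3 CPM per kb in planktivores. The groups were separate by a small margin, and the log2 fold change was -0.85 ± 0.28 (adjusted p = 0.253 by edgeR and 0.0438 by DESeq2). grin2ca had 1.11, 4.65 and 7.00 CPM per kb in piscivores, against 4.90, 9.48 and 9.68 CPM per kb in planktivores, with overlap and a log2 fold change of -0.90 ± 0.65 (adjusted p = 0.595 by edgeR). Replicate 1 of the piscivores was again at the end of both ranges. Without it the values were -0.66 for grm1a and -0.45 for grin2ca. Cerebellum markers summed to 532.2, 1085 and 1232 CPM per kb in piscivores and to 1379, 1377 and 1454 CPM per kb in planktivores, and their part in these values was not tested.

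In all, 3 members were higher and 5 lower in every piscivore than in every planktivore of 2023, where 10% and 10.3% of all genes tested were. The 5 on the lower side were grm1a, grik2, gria4b, gria2b and the glycine receptor gene glra4a. The largest other differences, grm5b (0.66 ± 0.30) and grm8a (-0.61 ± 0.27), had overlapping libraries and adjusted p of 0.387 and 0.373 by edgeR. Metabotropic receptors as a class had a median of 0.13, with 6 of 10 higher, and GABA-A a median of -0.12, with 9 of 13 lower.

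**Figure D3:**
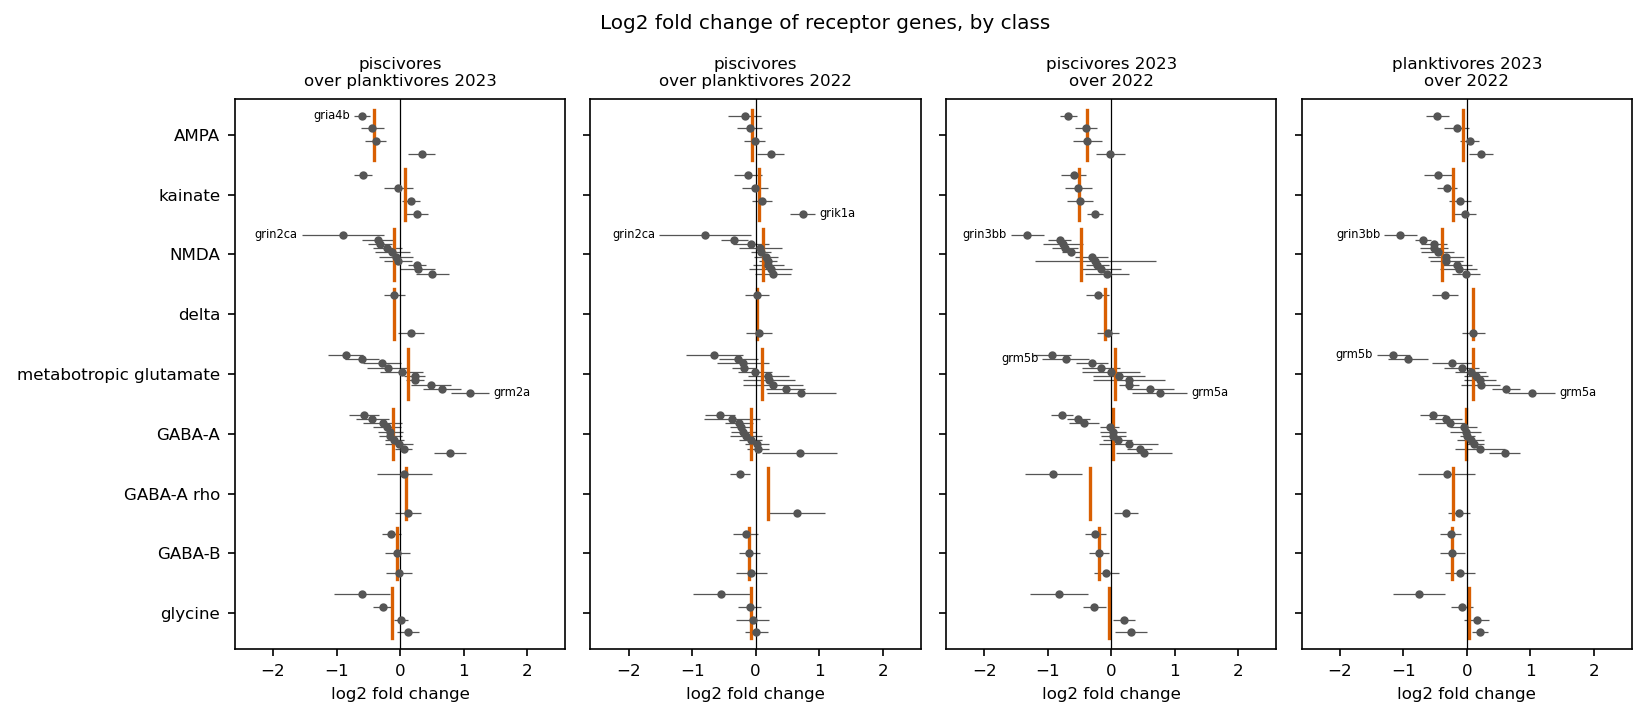
Log2 fold change of receptor genes with its SE (grey), by class, for the 4 comparisons between groups, with the median over all members of the class in orange. Positive values are higher in piscivores or in 2023. No member passed the threshold in edgeR, and the NMDA and kainate genes lie left of 0 in both comparisons between years.

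In 2022, edgeR called 0 of 55 members between piscivores and planktivores, as against 0.0533% of all 20624 genes tested, and DESeq2 called 0. There was 1 member higher (4.30% of all genes) and 1 lower (2.95% of all genes) at an unadjusted p below 0.05. The higher one was the kainate receptor gene grik1a. It had 4.89, 5.15 and 7.59 CPM per kb in replicates 1, 2 and 3 of the piscivores, against 4.01, 3.15 and 3.53 CPM per kb in replicates 2, 3 and 4 of the planktivores, a log2 fold change of 0.74 ± 0.20 (adjusted p = 0.423 by edgeR). All piscivores of 2022 were above all planktivores. In 2023 its values were 4.86, 3.89 and 3.61 CPM per kb in piscivores and 3.40, 4.16 and 2.88 CPM per kb in planktivores, with overlap.

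The lower one was gabra2a, with 1.68, 2.0 and 1.98 CPM per kb in piscivores, against 2.20, 2.68 and 3.51 CPM per kb in planktivores, without overlap (-0.56 ± 0.24, adjusted p = 0.670 by edgeR). The third gene without overlap was gabrr2a, lower in piscivores. So 1 member was higher and 2 were lower in every piscivore, where 7.41% and 6.27% of all genes were.

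grm2a and gabra5 pointed the same way as in 2023, with log2 fold changes of 0.72 ± 0.55 and 0.69 ± 0.59, but their libraries were widely scattered and the adjusted p were 0.844 and 0.861 by edgeR. grm2a had 7.43, 2.77 and 11.6 CPM per kb in piscivores and 3.03, 6.399 and 3.896 CPM per kb in planktivores. Without replicate 3 of the piscivores the log2 fold changes were 0.19 and 0.28. foxg1a in the same order was at 12.2, 0.0936 and 14.0 CPM per kb in piscivores and 0.0786, 7.81 and 0.160 CPM per kb in planktivores. In both groups of 2022, the libraries with the higher foxg1a level were also those with the higher grm2a level. In 2023 this order held in piscivores but not in planktivores. There, replicate 6 had the lowest foxg1a level of the planktivores but the highest grm2a level, at 5.02 CPM per kb. The telencephalon list summed to 88.3, 33.6 and 103.7 CPM per kb in piscivores and 42.1, 69.5 and 48.4 in planktivores. Of its 13 genes, 11 had a positive fold change between phenotypes and 2 a negative one. Not all followed foxg1a in order: piscivores had 160, 2 and 102 counts of dlx1a and 291, 322 and 385 of emx2. These relations were not tested.

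grin2ca (-0.80 ± 0.73), grm1a (-0.65 ± 0.44) and glra1 (-0.54 ± 0.45) were the members furthest on the lower side besides gabra2a, all with overlapping libraries. grm1a had 34.7, 13.6 and 11.4 CPM per kb in piscivores of 2022, against 25.7, 39.4 and 29.3 CPM per kb in planktivores. Replicate 1 of the piscivores thus lay with the planktivores. Marker lists that did not overlap between the phenotypes of 2022 were meninges, with 106.1 to 170.6 CPM per kb in piscivores and 73.5 to 95.2 in planktivores, and skeletal muscle (7 of 13 genes in the table), with 3.82 to 7.88 in piscivores and 26.3 to 35.05 in planktivores. The pituitary list (9 of 15 genes in the table) did not overlap either, with 0.509 to 1.39 CPM per kb in piscivores and 1.76 to 28.5 in planktivores. In 2023 this list varied far more between fish. It ran from 0.788 to 2411 CPM per kb in piscivores and from 0.654 to 554.2 in planktivores, with overlap. The part of these lists was not tested.

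Over both years, with year as a term in 1 model of all 12 libraries, edgeR called 0 of 55 members, where 0.312% of 21471 genes were DT, and DESeq2 called 0. Before adjustment, 7 members were higher in piscivores (8.08% of all genes) and 5 lower (6.67%) at a p below 0.05. The adjusted p was 0.152 for grik1a (log2 fold change 0.50), the smallest of all members, 0.220 for grm1a (-0.76) and 0.232 for grm2a (0.91). When replicate 1 of the piscivores of 2022 was left out, grm1a passed, with -1.07 and an adjusted p of 0.0284. The test of whether the phenotype difference itself changed between years called 0 members, where 0.0138% of 21789 genes were, and at an unadjusted p below 0.05 were 0 higher (3.31% of all genes) and 0 lower (3.09%). Its smallest adjusted p was 0.784, for gria4b, and DESeq2 called 0. The phenotype difference of no member was therefore shown to differ between 2023 and 2022.

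The comparison of years within a phenotype asked which transcripts differed between the 2 seasons. In piscivores, edgeR called 0 of 55 members, where 0.356% of 20511 genes were DT. Before adjustment, however, 12 members were lower in 2023 (10.2% of all genes) and 0 were higher (7.14%) at a p below 0.05. The median log2 fold change of the members was -0.166, with 39 of 55 lower, against a median of 0.006 over all genes. In planktivores, edgeR called 0 of 55 members, where 0.971% of 21311 genes were DT, and at an unadjusted p below 0.05, 7 were lower (11.5% of all genes) and 3 higher (8.53%). The median of the members was -0.080, with 37 of 55 lower, against 0.002 over all genes. DESeq2 called 1 member in piscivores, where it called 1.34% of all genes, and 2 in planktivores, where it called 2.01%. These are named below.

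Of the NMDA genes all 10 had a negative fold change in both phenotypes, with medians of -0.473 in piscivores and -0.394 in planktivores, and at an unadjusted p below 0.05, 5 of 10 were lower in piscivores (10.2% of all genes) and 3 of 10 in planktivores (11.5%). Over the alternative fits, including those without 1 library, 8 to 10 of the 10 were lower in both phenotypes. The 2 comparisons have no library in common.

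Among the 10 genes the GluN3 gene grin3bb had the largest difference in both phenotypes. It stood at 0.758, 0.536 and 0.831 CPM per kb in piscivores of 2023, against 1.76, 1.37 and 2.19 CPM per kb in piscivores of 2022. In planktivores it had 0.734, 0.583 and 0.949 CPM per kb in 2023, against 1.81, 1.18 and 1.69 CPM per kb in 2022. No library of 2023 reached the lowest library of 2022. The log2 fold changes were -1.32 ± 0.26 in piscivores and -1.04 ± 0.26 in planktivores, with adjusted p of 0.0949 and 0.0928 by edgeR and of 0.00179 and 0.00920 by DESeq2.

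grin3ba followed the same order, with 1.597, 1.30 and 1.73 CPM per kb in piscivores of 2023, against 2.38, 2.63 and 3.10 CPM per kb in 2022 (-0.81, adjusted p = 0.121 by edgeR). In planktivores it had 1.31, 2.28 and 1.80 CPM per kb in 2023, against 2.45, 2.49 and 2.78 CPM per kb in 2022 (-0.51, adjusted p = 0.228 by edgeR). The 3 GluN3 genes together summed to 2.78, 2.32 and 3.07 CPM per kb in piscivores of 2023, against 4.66, 5.16 and 6.01 CPM per kb in 2022, which is 0.516 of the mean of 2022. In planktivores the sums were 2.49, 3.61 and 3.39 CPM per kb in 2023, against 5.24, 4.25 and 5.22 CPM per kb in 2022, a ratio of 0.645. In both phenotypes the sums of the 2 years did not overlap.

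grin2da, the GluN2D subunit gene, which in mammals is strongest in the young brain and brainstem, had the smallest adjusted p of all members in planktivores, at a difference under 2-fold. It had 3.51, 4.15 and 4.44 CPM per kb in piscivores of 2023, against 5.53, 6.69 and 6.47 CPM per kb in 2022 (-0.64, adjusted p = 0.121 by edgeR). In planktivores it had 3.19, 3.82 and 3.197 CPM per kb in 2023, against 5.02, 5.84 and 5.60 CPM per kb in 2022 (-0.69 ± 0.12, adjusted p = 0.0503 by edgeR). All 6 libraries of 2023 lay under all 6 of 2022. The GluN1 gene grin1a, by contrast, had log2 fold changes of -0.22 and -0.01, and the sum of all NMDA genes was 0.827 of that of 2022 in piscivores and 0.878 in planktivores, with overlapping libraries in both.

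**Figure D4:**
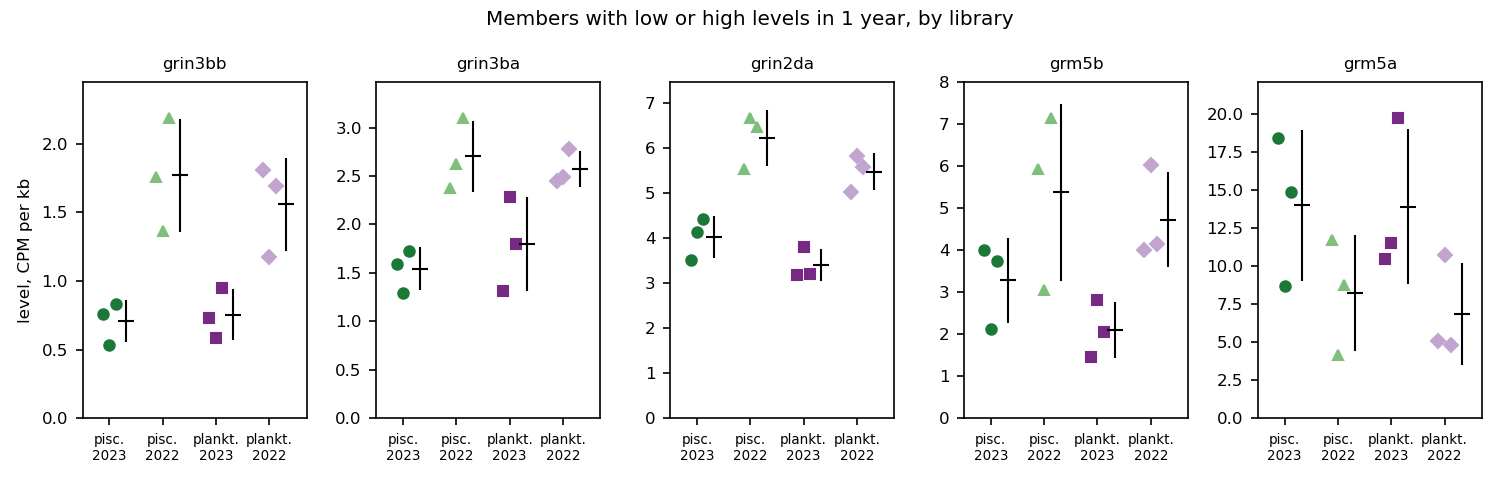
Levels of grin3bb, grin3ba, grin2da, grm5b and grm5a in each library in CPM per kb, with the mean and SD of each group of 3, for 2023 beside 2022 in each phenotype. The NMDA genes of the first 3 panels are lower in all 6 libraries of 2023, whereas the copies grm5b and grm5a point in opposite directions.

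All 4 kainate genes were on the lower side in 2023 in both phenotypes, with medians of -0.507 in piscivores and -0.212 in planktivores. In piscivores each of the 4 was lower in every library of 2023, as were 12.6% of all genes, and the sums of 19.2, 17.9 and 18.4 CPM per kb in 2023 stood against 22.7, 29.0 and 26.1 CPM per kb in 2022. In planktivores the sums overlapped, at 18.3, 24.2 and 22.9 CPM per kb in 2023 and 22.6, 23.02 and 28.0 CPM per kb in 2022. At an unadjusted p below 0.05 were 3 of 4 kainate genes in piscivores (10.2% of all genes were lower at this p) and 0 of 4 in planktivores (11.5%) by edgeR, and DESeq2 called none of them. The AMPA genes had a median of -0.384 in piscivores, where gria4b had 6.27, 5.77 and 5.68 CPM per kb in 2023, against 8.07, 10.2 and 9.91 CPM per kb in 2022 (-0.68, adjusted p = 0.103 by edgeR). In planktivores the AMPA median was -0.056.

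The copies of the group I receptor gene grm5 differed in opposite directions. grm5b had 1.47, 2.81 and 2.05 CPM per kb in planktivores of 2023, against 4.002, 6.02 and 4.14 CPM per kb in 2022, without overlap (-1.16 ± 0.26, adjusted p = 0.0746 by edgeR and 0.00210 by DESeq2). In piscivores it had 4.001, 2.12 and 3.73 CPM per kb in 2023, against 5.93, 3.05 and 7.16 CPM per kb in 2022, with overlap (-0.72 ± 0.37, adjusted p = 0.364 by edgeR). grm5a had 10.5, 11.5 and 19.8 CPM per kb in planktivores of 2023, against 5.06, 10.7 and 4.82 CPM per kb in 2022 (1.02 ± 0.37, adjusted p = 0.183 by edgeR), and the lowest of 2023 was just under the highest of 2022. In piscivores grm5a had 18.45, 8.67 and 14.85 CPM per kb in 2023, against 11.7, 4.18 and 8.74 CPM per kb in 2022, with overlap (0.76 ± 0.43, adjusted p = 0.411 by edgeR). Within a library the log2 ratio of grm5a to grm5b, which does not depend on the scaling of the library, lay between 1.99 and 3.27 in the 6 libraries of 2023 and between 0.219 and 0.983 in the 6 of 2022. The 2 years were separate in both phenotypes.

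Other members on 1 side in both phenotypes included grm6a (-0.93 in each, adjusted p of 0.197 in piscivores and 0.164 in planktivores by edgeR, at 18 to 69 counts a library), grm2b (0.62 in each, adjusted p of 0.423 and 0.180) and gabrd (0.52 and 0.60, adjusted p of 0.571 and 0.232). glra1 was on the lower side in both, with overlapping libraries (-0.83 and -0.75, adjusted p of 0.392 and 0.3605 by edgeR). gabra3 was lower too (-0.52 and -0.53, adjusted p of 0.215 and 0.218 by edgeR). In all, 2 members were higher and 14 lower in every piscivore of 2023 than in every piscivore of 2022, where 11.9% and 12.6% of all genes were. In planktivores the counts were 1 and 6, where 13.2% and 14.4% of all genes were. Members without overlap in either direction were thus 29.1% in piscivores (24.5% of all genes) and 12.7% in planktivores (27.6%). The 5 genes lower without overlap in both phenotypes were grin2da, grin3ba, grin3bb, grik4 and grm6a. The share of all genes lower in both was not worked out, so this count has no background to be read against. Without ribosomal RNA genes before normalization the medians of the members were -0.159 in piscivores and -0.079 in planktivores, and 0 were called by edgeR. Marker lists that did not overlap between years were the hypothalamus in piscivores, with 220.3 to 260.9 CPM per kb in 2023, against 7.15 to 49.3 in 2022, and in planktivores the cerebellum, with 1377 to 1454 in 2023, against 738.2 to 1283 in 2022, the neurons, with 3977 to 4378 in 2023, against 3089 to 3775 in 2022, and the erythrocytes (3 of 8 genes in the table), with 76.4 to 199.9 in 2023, against 18.7 to 44.6 in 2022. Their part in the receptor values was not tested.

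GABA-A genes lay on both sides of 0. Their medians between years were 0.028 in piscivores and -0.018 in planktivores, and the sum was 1.05 and 1.07 times that of 2022. The ratio of GABA-A genes, with rho, to ionotropic glutamate receptor genes was 1.32, 1.59 and 1.44 in piscivores of 2023, against 1.24, 1.11 and 1.13 in 2022. In planktivores it was 1.47, 1.31 and 1.27 in 2023, against 1.25, 1.24 and 1.11 in 2022. Every library of 2023 was above every library of 2022. This difference was not tested. Between phenotypes the ratio overlapped in both years.

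Several members varied more between fish of a group than between groups. Replicate 1 of the piscivores of 2023 and replicate 3 of the piscivores of 2022 stood apart in the same genes: grin2ca was at 1.11 and 1.23 CPM per kb there, against 3.96 to 11.5 in the other 10 libraries. The ratio of grm2a to grin2ca was 11.8 and 9.41 in these 2 fish and 0.427 to 1.26 in the other 10. The cerebellar marker cbln12 was at 2.13 and 1.99 CPM per kb in the same fish and at 48.7 to 239.1 elsewhere, and slc17a7a, a vesicular glutamate transporter gene of mammalian granule cells, at 7.99 and 2.03 CPM per kb, against 17.2 to 77.8 elsewhere. The whole cerebellum list, to which cbln12 belongs, summed to 532.2 and 223.7 CPM per kb in these fish, but to 438.6 in replicate 2 of the piscivores of 2022. Its genes did not all go together. Replicate 1 of the piscivores of 2023 had fewer counts than replicate 4 for zic1 (4596 against 14808) and neurod1 (4936 against 21710). For pvalb7 (13486 against 13948) and pcp4a (3075 against 2236) it did not stand apart in this way. gabrd had its lowest value, 19.03 CPM per kb, in replicate 3 of the piscivores of 2022. The part of the regional content in these levels was not tested.

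Replicate 2 of the piscivores of 2022 stood apart in other members. It had the lowest level of grm5a (4.18 CPM per kb), grm2a (2.77), grm2b (9.86) and glrbb (21.9) of all libraries, and the lowest sum of GABA-A and of metabotropic receptors. glra1 was at 6.93 CPM per kb there, its second highest value. The hox genes of hindbrain and spinal cord (18 of 18 listed in the table) summed to 40.0 CPM per kb in this library and the glycine transporter gene slc6a5 stood at 11.5 CPM per kb, its highest value. glra1 was highest, at 8.66 CPM per kb, in replicate 4 of the planktivores of 2022, where the hox sum was highest too, at 58.6 CPM per kb. It was lowest, at 1.35 CPM per kb, in replicate 1 of the piscivores of 2023, where the hox sum was 0.228 CPM per kb. Other libraries did not follow this order. Replicate 2 of the piscivores of 2023 had a hox sum of 21.7 CPM per kb with glra1 at 2.78, replicate 6 of the planktivores of 2023 a hox sum of 0.608 with glra1 at 4.24, and replicate 2 of the planktivores of 2022 a hox sum of 0.733 with glra1 at 3.71 CPM per kb. The relation was not tested.

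**Figure D5:**
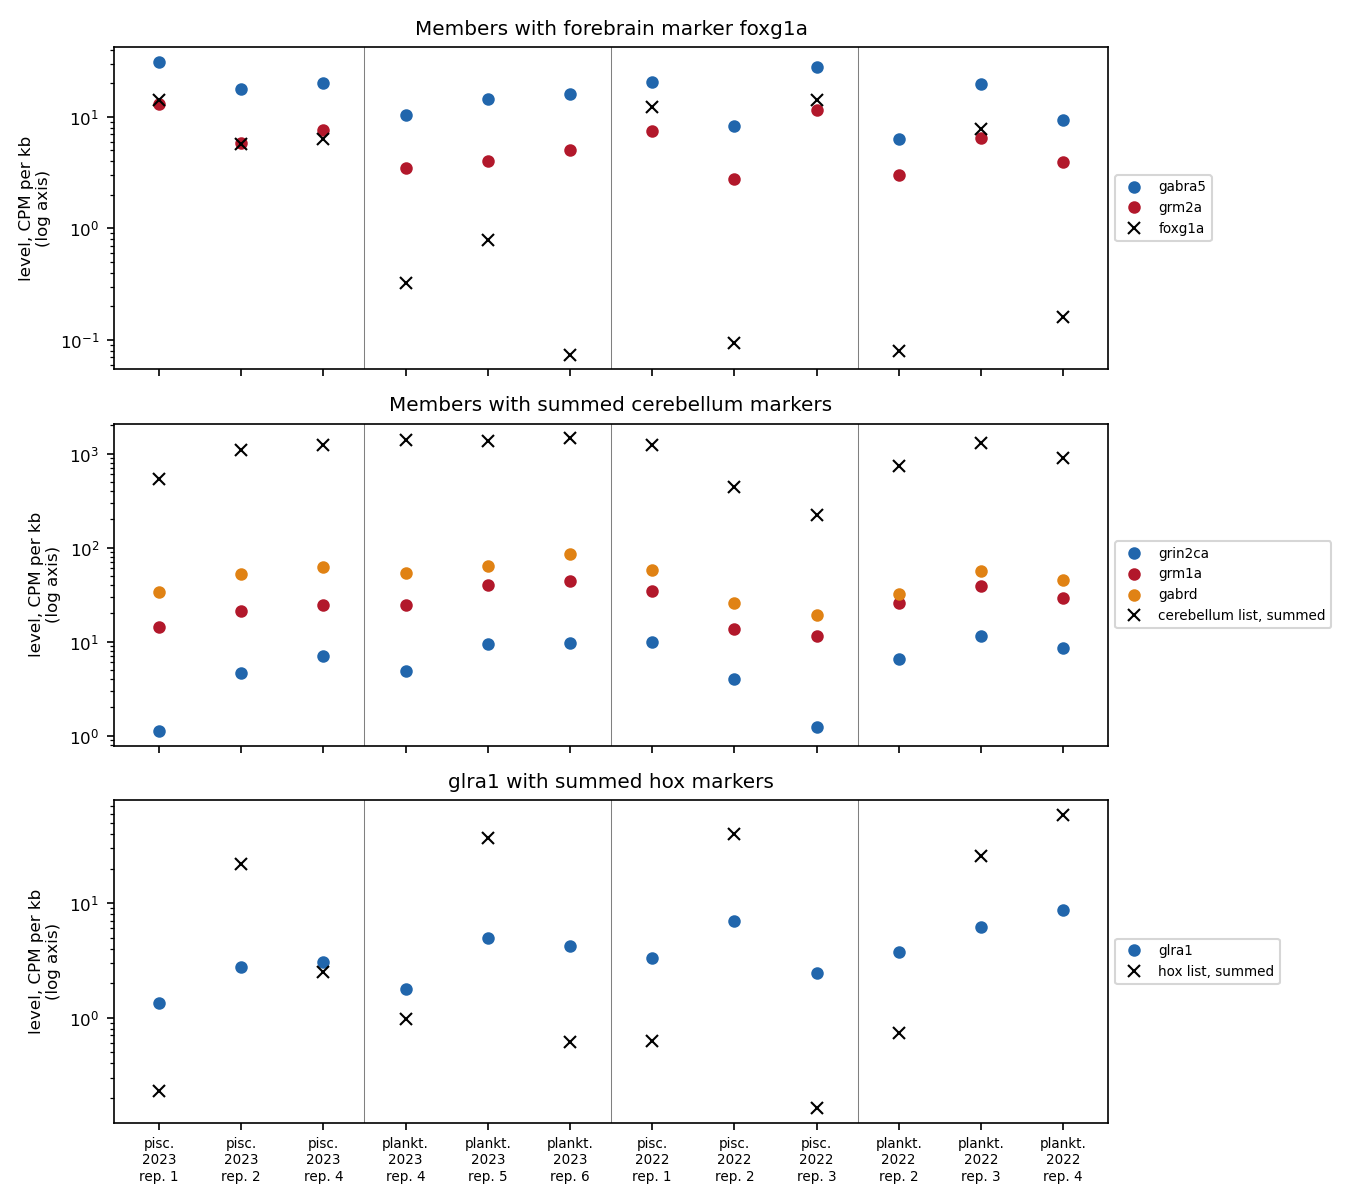
Members whose level differed between fish of a group, library by library in CPM per kb on log axes, with a regional marker or the sum of a marker list (crosses). gabra5 and grm2a are shown with foxg1a, grin2ca, grm1a and gabrd with the cerebellum list, and glra1 with the hox list. grin2ca is lowest, at 1.11 and 1.23 CPM per kb, in the 2 libraries in which the member grm2a is highest.

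Counted over the 53 receptor genes, replicate 2 of the piscivores of 2023 had 45 genes below their median over the 12 libraries and replicate 4 of the planktivores of 2023 had 43. Replicate 1 of the piscivores of 2022 had 42 above and replicate 3 of the planktivores of 2022 had 40 above. Median deviations reached -0.287 and 0.187 on the log2 scale. The median over all genes above 1 CPM stayed between -0.01 and 0.006 in every library. Normalization and the centring of each gene on its own median hold this value near 0. It therefore does not show how far other sets of genes deviate.

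Genes that act with these receptors were described by 3 lists. Of 33 genes for auxiliary subunits and scaffolds of glutamate synapses, such as cornichons, Shank and Homer proteins, edgeR called 1, cacng6b, higher in piscivores of 2023 than of 2022. Its level was 0.992, 1.55 and 1.6 CPM per kb in 2023, against 0.107, 0.137 and 0.0856 CPM per kb in 2022. These rest on 91, 60 and 137 counts in 2023, against 4, 6 and 4 counts in 2022, and the log2 fold change was 3.62 ± 0.37 (edgeR, adjusted p = 0.0075). The mammalian protein belongs to the same family as the AMPA receptor auxiliary subunits but is known as a calcium channel subunit. At an unadjusted p below 0.05, 2 genes of the list were higher in piscivores of 2023 than of 2022 (7.14% of all genes). On the lower side were 6 (10.2%). In planktivores 3 were higher (8.53%) and 7 lower (11.5%). DESeq2 called cacng6b in piscivores between years and between phenotypes of 2023, and camk2b1 lower in planktivores of 2023 than of 2022. It also called cacng6b in the test of whether the phenotype difference changed between years. There edgeR gave cacng6b a log2 fold change of 3.45 with an adjusted p of 0.159. Of 12 genes of inhibitory synapses, edgeR and DESeq2 called 0 in the 4 comparisons between groups. Between years, 4 of 12 were lower in piscivores of 2023 (10.2% of all genes) at an unadjusted p below 0.05. In planktivores 3 of 12 were lower (11.5%), and 0 were higher in either phenotype (7.14% and 8.53%). Among the lower ones was gphna, which encodes the anchor gephyrin (-0.65 and -0.53, adjusted p of 0.146 and 0.198 by edgeR). The other gephyrin copy, gphnb, had more counts in every library and was lower mainly in piscivores (-0.47 and -0.07, adjusted p of 0.171 and 0.812 by edgeR).

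Of 22 genes that make, carry or clear the transmitters, edgeR called 0 in every comparison and DESeq2 called 1, the GABA transporter gene slc6a11a, higher in piscivores of 2023 than of 2022 and lower in piscivores over both years. It rests on 136, 78 and 232 counts in piscivores of 2023, against 17, 43 and 28 in 2022. The other copy, slc6a11b, had more counts in every library. In the same comparisons its log2 fold changes were -0.51 and 0.003 (adjusted p of 0.387 and 0.996 by edgeR). Between phenotypes of 2023, 4 of the 22 genes were higher in piscivores at an unadjusted p below 0.05 (8.90% of all genes) and 0 lower (4.78%). In 2022, 1 was higher (4.30%) and 1 lower (2.95%). Between years, 1 was higher in piscivores of 2023 (7.14%) and 2 lower (10.2%). In planktivores 3 were higher (8.53%) and 1 lower (11.5%). The glutamine synthetase gene glulb, which serves glial recycling of glutamate, had 166, 153 and 116 CPM per kb in piscivores of 2023, against 115, 83.5 and 78.1 CPM per kb in planktivores. In 2022 it had 106, 136 and 143 CPM per kb in piscivores, against 78.0, 70.3 and 79.5 CPM per kb in planktivores. Over both years its log2 fold change was 0.72 ± 0.13 with an adjusted p of 0.0314 by edgeR, under the 2-fold threshold of a call. The other glutamine synthetase copy, glula, had more counts in every library, for instance 57539 against 11217 in replicate 1 of the piscivores of 2023. Its log2 fold change over both years was only 0.07 ± 0.14 (adjusted p = 0.848 by edgeR). The astroglia and radial glia markers, 8 of 11 in the table, summed to between 3566 and 6403 CPM per kb, and the sums of the phenotypes overlapped in 2023, at 3787 to 5133 in piscivores and 3566 to 4875 in planktivores, and in 2022, at 4504 to 6403 in piscivores and 3663 to 5440 in planktivores. This list includes glulb and glula. Of its 7 genes tested, 6 were on the higher side in piscivores in 2023 (median log2 fold change 0.194) and 7 in 2022 (0.371). Over both years 7 were on the higher side in piscivores, with a median log2 fold change of 0.276, and 3 had an unadjusted p below 0.05 (8.08% of all genes). The part of these glial markers in the level of glulb was not tested.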

How the data were processed

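Whole-brain poly(A) RNA of 12 fish, extracted fish by fish, was sequenced by the authors. They trimmed reads with Trimmomatic, aligned them to the SLUC_FBN_1.2 genome with STAR (version 2.5.2) and counted uniquely mapped reads within exons with featureCounts. The deposited count table holds these raw counts per gene, without normalization, and gene positions and exon lengths stand beside the counts as deposited. The deposited TPM values are the authors' counts divided by exon length and scaled to a common total, and were used only as an alternative scale. The strand setting of the counting is not given in the sources used here. The 24 lines that name no gene (0.589% to 3.18% of counts) were left out, and 1 gabr gene, as well as the single values of some other members that count in the totals, is not reported here.

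Counts were filtered (filterByExpr), TMM-normalized and tested with edgeR 4.0.16 (R 4.3.3) by the quasi-likelihood F test, each comparison on its own 6 libraries, with p-values adjusted over all genes tested. The comparison over both years and the interaction used all 12. DESeq2 1.42.0 (Wald test), its size factors, other count filters, removal of 34 ribosomal RNA genes, a single fit to all libraries, the adjusted p alone and leaving out each library were alternatives. The fitting code was tested on simulated data. Levels are TMM-normalized CPM divided by exon length in kilobases, and counting limits how finely genes near the floor of 3 counts can be read. The fish are separate animals, so p-values measure the spread between fish. Positions of 55 of 55 members equal those in the RefSeq gene table.

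The members and gene lists were chosen with earlier results of these data known. Genes were named if called, or with an adjusted p below 0.05, in any fit, among the 4 highest and 4 lowest fold changes of a comparison, the 2 highest or the lowest level of a class, or the 3 most unequal and 3 most even pairs of copies. Further members were named for an unadjusted p below 0.05, for groups that do not overlap or for single libraries, and these were chosen after their values were seen.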

Additional observations from a re-analysis of the deposited data

How the results depend on the processing

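The edgeR count of 0 members called held in 85 alternatives over the 6 comparisons and not in 5. Some of the 85 left out 1 library and called almost no gene at all, so they could hardly have called a member. Between phenotypes of 2022, the fit without replicate 3 of the piscivores called 0 of 21112 genes. Between phenotypes of 2023, the fit without replicate 1 of the piscivores called 1 of 21632 genes. The DESeq2 Wald test called 1 member between phenotypes of 2023 (grm2a, adjusted p = 0.0134), 1 in piscivores between years (grin3bb, adjusted p = 0.00179) and 2 in planktivores between years (grm5b and grin3bb, adjusted p = 0.0021 and 0.0092). A single edgeR fit to all 12 libraries called 1 in planktivores between years (grin3bb, -1.04, adjusted p = 0.0494). Leaving out 1 library at a time gave 0 to 1 members called over both years, the 1 being grm1a without piscivore 2022 replicate 1 (-1.07, adjusted p = 0.0284). None of the 32 named fold changes reversed: 427 refitted fold changes stayed on their side of the threshold and 5 passed it. For the 48 class ratios, 336 of 336 refitted values moved by less than 1 SD, the larger SD of log2 levels within a group. This limit is loose, since it comes from the same 3 libraries a group, and it ignores direction. Class ratios near 1 could change side. NMDA sums of 2022, for instance, averaged 119.6 CPM per kb in piscivores and 117.3 in planktivores, but 234.2 and 234.4 in TPM. The cause of the differences between fits was not tested.

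Over all genes the DESeq2 Wald test called 358 higher and 52 lower between phenotypes of 2023, where edgeR called 27 and 9, 72 and 76 in 2022 (edgeR 6 and 5), 222 and 167 in piscivores between years (edgeR 42 and 31), 206 and 395 in planktivores (edgeR 43 and 164), 153 and 65 over both years (edgeR 54 and 13) and 69 and 23 for the interaction (edgeR 2 and 1). Fish that share a replicate number are different animals. With the number as a replicate block, which only the phenotypes of 2022 and the piscivores of both years allow, 0 members were called in each. The class sums with genes known only by a locus identifier were not run, since the reference table used here describes no such gene. Counting limits grm6a, grm6b and gabrr3a, with as few as 11 counts in a library, and 3 fish a group limit every comparison.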
